A study of Mus musculus with 6 samples.

Results

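The collagen genes of the embryonic mouse retina were described in bulk RNA sequencing libraries from Foxp1 conditional knockout (cKO) animals and control littermates at embryonic day 16.5. They were taken as every gene of the authors' deposited table whose symbol consists of Col, a type number, the letter a and a chain number. This gave 42 of the 55487 genes counted. The 3 animals labelled cKO were Foxp1 fl/fl with Six3-Cre, a Cre driven by Six3 sequence that is active in the developing retina. The 3 labelled control were Foxp1 fl/fl without Cre, so that both groups carry the loxP-flanked alleles. All were C57BL/6 from 1 litter, each library holds the left and right retinas of 1 animal, and the study asks what Foxp1, a forkhead transcription factor, does during early retinal development.

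Collagens are secreted proteins of the extracellular matrix, built from chains that wind around each other in a triple helix. Fibrillar collagens form the fibrils of connective tissue, type IV collagens form the sheet-like networks of basement membranes, and collagens with interrupted helices sit on fibrils or membranes and link them to other molecules. In the eye, type II and type IX collagens build the fibrils of the vitreous, and the inner limiting membrane between retina and vitreous and the walls of retinal vessels contain type IV and type XVIII collagens. The neural retina itself holds little fibrillar matrix, while the sclera, cornea and mesenchyme around it hold much of it.

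Foxp1 levels went against the group labels as a whole, and sex-linked genes went against the labels of some libraries. Foxp1 had counts, scaled to library size as CPM, of 72.4, 75.5 and 68.8 in the libraries labelled cKO 1 to 3, against 50.8, 41.1 and 46.2 CPM in those labelled control 1 to 3, with no overlap and with the higher values under the knockout label. The counts are per whole gene, so reads from a transcript that lacks a deleted part cannot be told apart from others. Xist and Y-linked genes matched the labelled sex in 4 of 6 libraries, and the libraries labelled control 2 and cKO 2 were the others. When the labelled sexes were exchanged between groups number for number, they matched in 6 of 6. Every comparison here is therefore of the libraries as labelled, and each direction below carries this doubt. Total counts per library ranged from 23707761 to 25714620.

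The collagen genes took between 0.125% and 0.139% of the counts of a library, and all 42 had at least 1 count in every library. Levels differed widely between genes. A mean of at least 1 CPM over the 6 libraries was reached by 37 of them, at least 10 CPM by 19 and at least 100 CPM by 6. The 6 were Col9a1, Col2a1, Col4a1, Col4a2, Col18a1 and Col23a1, which together made up 63.4% of all collagen CPM. Per kilobase of summed exon length, which allows genes to be compared, Col9a1 led with a level of 43.7 CPM per kilobase. Behind it, Col4a2 at 18.2, Col23a1 at 18.1, Col2a1 at 17.3, Col9a2 at 16.7, Col4a1 at 16.5 and Col18a1 at 15.9 CPM per kilobase lay close together, and each overlapped its neighbour in this order over the libraries. The genes that lead in connective tissue were far lower: Col1a1 had 8.07 CPM per kilobase, Col1a2 2.29 and Col3a1 1.06.

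**Figure D1:**
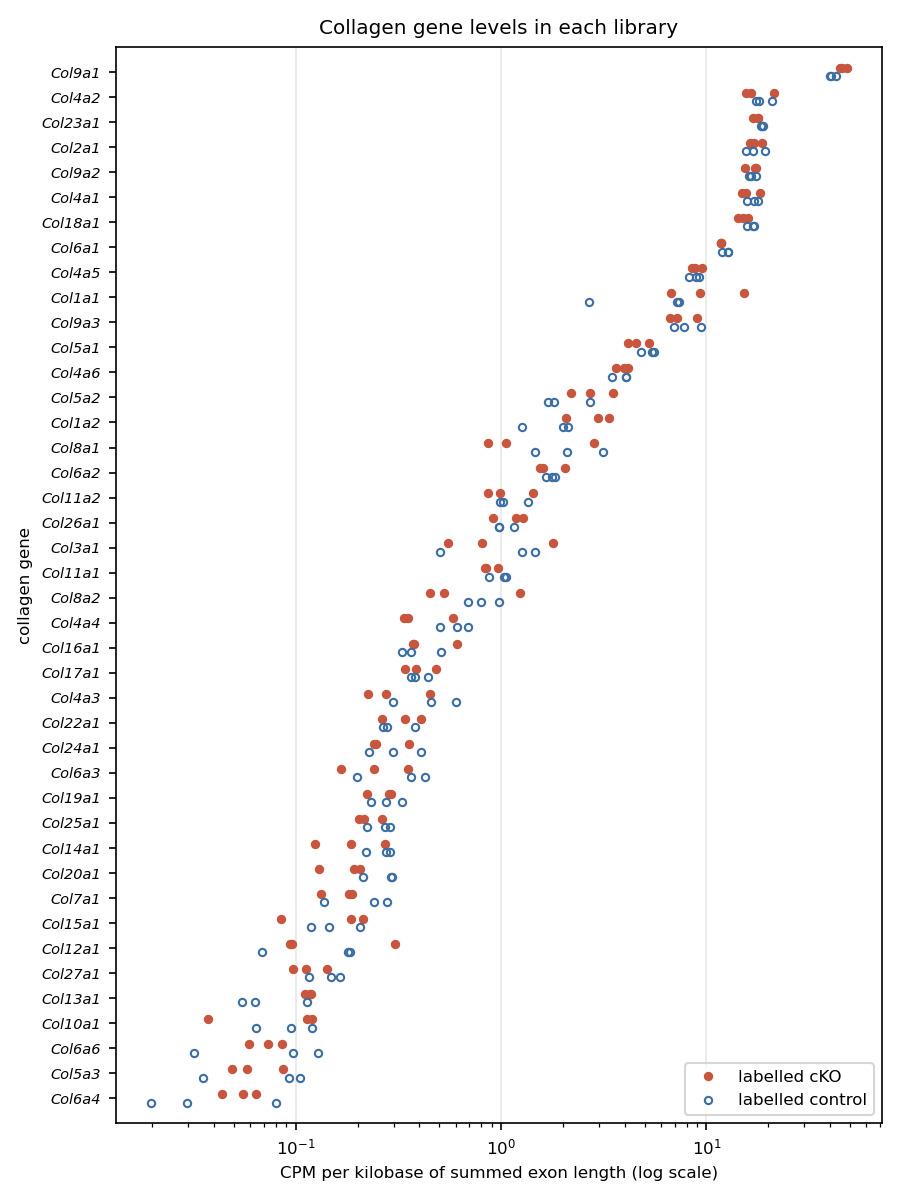
Level of each of the 42 collagen genes in each library, as CPM per kilobase of summed exon length on a log scale, with filled points for libraries labelled cKO and open points for those labelled control, and genes in order of their mean. Col9a1 stands alone at the top at 43.7 CPM per kilobase, a group from Col4a2 to Col18a1 follows between 18.2 and 15.9, and the points of both groups overlap in most genes.

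The members lie on 15 chromosomes, with 7 on chromosome 1, and several are neighbours with facing starts. The upstream sequence of Col9a1 (chromosome 1, 24177610 to 24252684, plus strand, GRCm38/mm10) is shown because it is the most abundant collagen, and the shared starts of the type IV pairs are shown because the pairs' levels are compared below. Col9a1 has a start at the 5′ end and another inside the gene, whose product lacks the amino-terminal globular part and is known from the eye. Counts per gene do not separate the transcripts from these starts. The first sequences are upstream of these starts (chr1:24177360-24177609 and chr1:24194953-24195186, plus strand, from RefSeq promoter windows on GRCm38.p6, the second up to the first annotated exon base). The third, in capitals, is the overlap of the annotated 5′ ends of Col4a1 and Col4a2 (chr8:11312805-11312826, plus strand), and the fourth lies between the starts of Col4a4 and Col4a3 (chr1:82586850-82586920, minus strand).
Col9a1 upstream start: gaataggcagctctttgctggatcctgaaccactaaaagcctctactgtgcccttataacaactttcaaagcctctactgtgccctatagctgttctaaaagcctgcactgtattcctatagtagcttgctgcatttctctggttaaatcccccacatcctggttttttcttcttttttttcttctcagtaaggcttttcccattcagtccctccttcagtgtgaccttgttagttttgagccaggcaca
Col9a1 internal start: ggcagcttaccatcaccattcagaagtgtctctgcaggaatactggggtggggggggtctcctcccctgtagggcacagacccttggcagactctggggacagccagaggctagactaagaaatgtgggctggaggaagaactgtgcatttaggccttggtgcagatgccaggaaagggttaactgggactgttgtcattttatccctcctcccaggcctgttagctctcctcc
Col4a1/Col4a2 overlap: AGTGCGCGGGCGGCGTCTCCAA
Col4a4/Col4a3 interval: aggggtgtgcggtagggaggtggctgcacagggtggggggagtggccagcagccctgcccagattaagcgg
On either strand, none of these stretches holds the TATA box letters TATAAA, the box CCAAT or the forkhead letters GTAAACA. In the 36 RefSeq windows of 250 bases upstream of a start that were found for 33 of the 42 members, GTAAACA occurred in 1 (2.78%), that of Col6a1, against 3.17% of all 32851 windows. TATAAA was in 5 collagen windows (13.9%, against 12.4% of all) and CCAAT in 13 (36.1%, against 33.8% of all). The windows with CCAAT include some of Col9a1, Col4a1 and Col4a2, although the stretches printed above do not hold it. The median GC content was 59.4% in the collagen windows and 52.4% in all.

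Across the groups as labelled, no collagen gene passed the test. Of the 42 members, 41 passed the filter on low counts (all but Col10a1, a network collagen of growth cartilage), and 0 of these had an adjusted p under 0.05 in edgeR's quasi-likelihood test over 17275 genes, of which 0.781% were called. At an unadjusted p under 0.05 there were 4 (Col9a1, Col18a1, Col4a4 and Col5a1), a share below the 16.5% of all tested genes. DESeq2 called 1, Col9a1, beside 566 of all 17275 tested genes, and limma-voom called 0, beside 13 of all 17275. The log2 fold change of cKO-labelled over control-labelled libraries was positive in 15 members and negative in 26, beside 49.9% negative over all tested genes, with a median of -0.06 beside their 0.00. The groups did not overlap in 4 members, Col9a1 being higher and Col23a1, Col6a1 and Col20a1 lower in the libraries labelled cKO; over all tested genes this held for 20.1%.

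**Figure D2:**
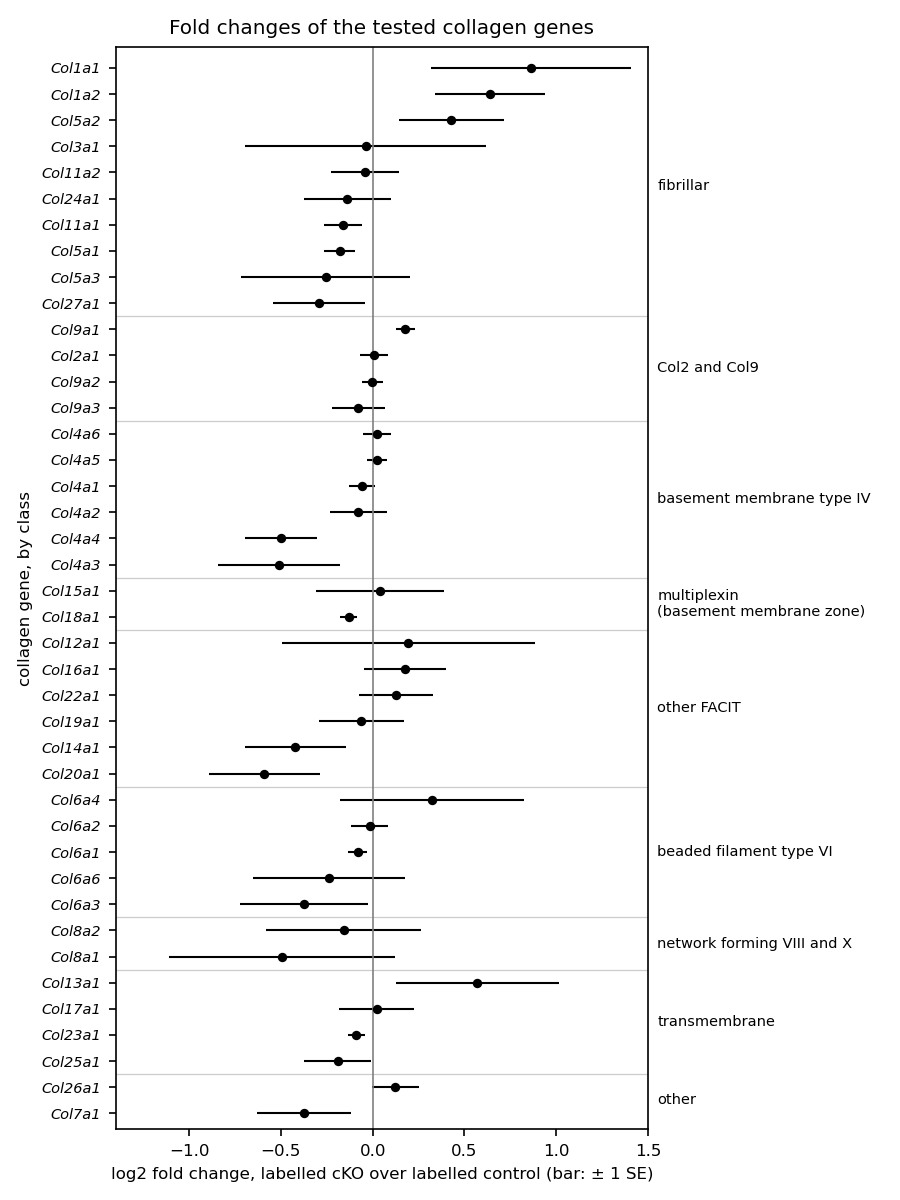
Log2 fold change of cKO-labelled over control-labelled libraries for the 41 tested collagen genes, grouped by class, with bars of 1 standard error from edgeR. Points lie on both sides of 0 in most classes, and Col1a1 at 0.86 and Col20a1 at -0.59 are the ends of the range.

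Among the collagens of the vitreous fibril, Col9a1 had a small difference with no overlap between the groups. Col9a1, a chain of the type IX collagen that coats type II fibrils, was counted 5805, 5906 and 5869 times under the cKO label, against 4817, 5377 and 4855 times under the control label. This is 227, 246 and 232 CPM in cKO-labelled libraries and 202, 217 and 205 CPM in control-labelled libraries, so the lowest library labelled cKO lay above the highest labelled control. The log2 fold change was 0.18 (SE 0.05, n = 3 per group) with an adjusted p of 0.0888 in edgeR's quasi-likelihood test. The direction was the same in every alternative, from 0.14 to 0.21 when single libraries were left out. The ciliary margin at the rim of the retina also makes vitreous collagens. Its summed markers had 48.5, 30.9 and 41.6 CPM in cKO-labelled and 38.8, 45.2 and 50.7 CPM in control-labelled libraries, and their part in the Col9a1 values was not tested. In bulk tissue, fewer cells of a type and less RNA per cell cannot be told apart. Most of that sum was Ccnd2, a cyclin that other dividing cells express too, at 35.9, 17.4 and 30.6 CPM in cKO-labelled and 27.99, 31.1 and 38.2 CPM in control-labelled libraries.

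The partner chains of Col9a1 overlapped between the groups. Col2a1, the type II chain that forms the core of the vitreous fibril, had 157, 151 and 172 CPM in cKO-labelled and 179, 156 and 144 CPM in control-labelled libraries, with a log2 fold change of 0.01 (SE 0.08). Col9a2 had 54.0, 47.8 and 53.2 CPM in cKO-labelled and 54.2, 49.8 and 51.2 CPM in control-labelled libraries. Col9a3 was more spread, at 27.7, 25.7 and 34.6 CPM in cKO-labelled and 26.7, 36.2 and 30.0 CPM in control-labelled libraries. The chains of Col9a2 and Col9a3 join that of Col9a1 in the type IX molecule, and the differences between their fold changes were not tested. Cartilage is the other tissue rich in type II and IX collagen, and its part in these values was not tested. Of its 8 listed markers, Matn1 and Snorc had 0 counts in all 6 libraries, Acan had at most 0.121 CPM and Matn3 at most 0.161 CPM. Comp, Hapln1 and Cnmd had counts in every library, with at most 0.335, 0.395 and 1.22 CPM. The summed cartilage list, at 193, 172 and 166 CPM in cKO-labelled and 214, 195 and 205 CPM in control-labelled libraries, was nearly all Sox9, which retinal progenitors express too.

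**Figure D3:**
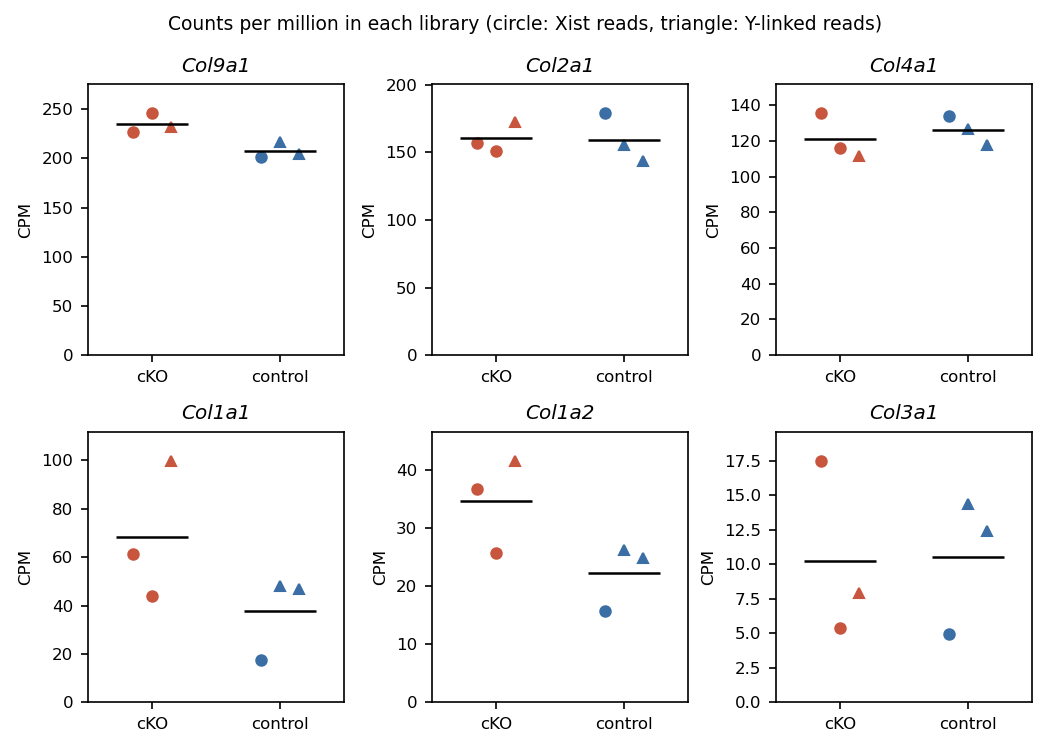
CPM in each library for 6 collagen genes, libraries labelled cKO on the left and labelled control on the right of each panel, with circles for libraries with Xist reads, triangles for those with Y-linked reads and lines for group means. Col9a1 is separated between the groups while Col2a1 and Col4a1 overlap, and Col1a1 ranges from 17.5 to 99.8 CPM.

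The type I chains had the largest positive fold changes of the fibrillar class, and neither passed the test. Col1a1, the main chain of the fibrils of bone, skin and sclera (chromosome 11, 94936224 to 94953042, plus strand), had 61.2, 44.1 and 99.8 CPM in cKO-labelled and 17.5, 48.2 and 47.0 CPM in control-labelled libraries. The library labelled cKO 3 was far above the rest and control 1 far below, and cKO 2 lay under 2 of the control libraries. The log2 fold change was 0.86 (SE 0.55), with an adjusted p of 0.543 in edgeR's test. Col1a2, the partner chain of type I collagen (chromosome 6, 4504814 to 4541544, plus strand), had 36.7, 25.8 and 41.6 CPM in cKO-labelled and 15.6, 26.3 and 24.9 CPM in control-labelled libraries. Its groups overlapped only through cKO 2 and control 2, and its log2 fold change was 0.64 (SE 0.30, adjusted p 0.408 in edgeR's test).

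Within each sex-linked pattern the type I chains had the same direction, but each comparison had only 1 library on one side. Among libraries with Xist reads, 2 labelled cKO and 1 labelled control, the log2 ratio of mean CPM was 1.59 for Col1a1 and 0.998 for Col1a2. Among those with Y-linked reads, 1 labelled cKO and 2 labelled control, it was 1.07 for Col1a1 and 0.70 for Col1a2. The lone libraries, control 1 and cKO 3, were the lowest and the highest of all libraries for both genes. These ratios therefore restate those extremes and are no independent check. Of the 37 members with at least 1 CPM, 7 were higher in cKO-labelled libraries within both patterns, 14 were lower within both and 16 differed in direction. With the exchanged sexes as a covariate, a setting chosen after the data were seen, edgeR called Col1a2 (log2 fold change 0.84, adjusted p 0.0391) and Col9a1 (0.18, adjusted p 0.0466) but not Col1a1 (1.29, adjusted p 0.0976), and 4.32% of all tested genes. DESeq2 with the same covariate called Col1a1 (1.3197, adjusted p 3.36e-06) and Col9a1 (0.18, adjusted p 0.0243), and gave Col1a2 no adjusted p. It called 11.7% of all genes with an adjusted p.

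The authors' deposited table points the other way for the same genes. It gives an adjusted p for 14 of the 42 members, and 3 of these are under 0.05, beside 8.97% of all its genes with an adjusted p. In the authors' deposited table the log2 fold change is -1.32 for Col1a1 (adjusted p 3.53e-06), -0.84 for Col1a2 (adjusted p 1.25e-07) and -0.18 for Col9a1 (adjusted p 0.0282), and it is -0.60 for Foxp1. In the DESeq2 fit with exchanged sexes, all 41 tested collagen genes had the opposite sign to the authors' deposited table. The sum of the paired values was at most 0.00328 in size. The opposite sign was not particular to collagens, since 17224 of all 17275 tested genes had it in that fit. Without the covariate, edgeR gave 34 of 41 collagen genes the opposite sign, with sums of up to 0.457, beside 15992 of all 17275 tested genes.

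The other fibrillar members differed in both directions, and none passed the test. Col5a1, a type V chain that sets fibril diameter, had 44.7, 35.2 and 38.3 CPM in cKO-labelled and 47.4, 46.1 and 40.6 CPM in control-labelled libraries, with a log2 fold change of -0.18 (SE 0.08, adjusted p 0.287 in edgeR's test). Col5a2, its partner chain, had 21.0, 33.5 and 25.9 CPM in cKO-labelled and 17.4, 26.1 and 16.2 CPM in control-labelled libraries, a log2 fold change of 0.43 (SE 0.29). Col11a1, a minor fibrillar chain that joins type II collagen in cartilage and vitreous, had 12.3, 10.7 and 10.7 CPM in cKO-labelled and 13.4, 11.1 and 13.2 CPM in control-labelled libraries. The remaining fibrillar genes, Col11a2, Col24a1, Col27a1 and Col5a3, had log2 fold changes between -0.29 and -0.04. In all, 3 of the 10 fibrillar genes were positive and 7 negative, with a median of -0.09. The summed level of the class was 202 ± 37.1 CPM in cKO-labelled and 160 ± 26.6 CPM in control-labelled libraries (SD, n = 3 each).

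Col3a1, the fibrillar collagen of soft connective tissue, varied more within the groups as labelled than between them. It had 17.5, 5.40 and 7.90 CPM in cKO-labelled and 4.94, 14.3 and 12.4 CPM in control-labelled libraries, with a log2 fold change of -0.04 (SE 0.66). Col12a1, a fibril-associated collagen of dense connective tissue, had 4.62, 1.46 and 1.42 CPM in cKO-labelled and 1.05, 2.74 and 2.78 CPM in control-labelled libraries. Both were high in cKO 1, control 2 and control 3. The summed small leucine-rich proteoglycans, such as decorin and biglycan, which bind such fibrils, had 6.26, 2.79 and 2.72 CPM in cKO-labelled and 2.64, 5.08 and 5.82 CPM in control-labelled libraries, high in the same 3. The 8 markers of periocular mesenchyme, the tissue that gives rise to sclera and cornea, summed to 12.3, 5.78 and 9.36 CPM in cKO-labelled and 8.24, 11.1 and 11.8 CPM in control-labelled libraries. This sum was again highest in the same 3 libraries, and its part in the collagen values was not tested. Pdgfra, its largest member, had 5.67, 3.41 and 5.21 CPM in cKO-labelled and 6.15, 6.53 and 6.62 CPM in control-labelled libraries. On its own it was lower in cKO 1 than in control 1. Col1a1 and Col1a2 were highest in cKO 3, where neither sum was high.

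**Figure D4:**
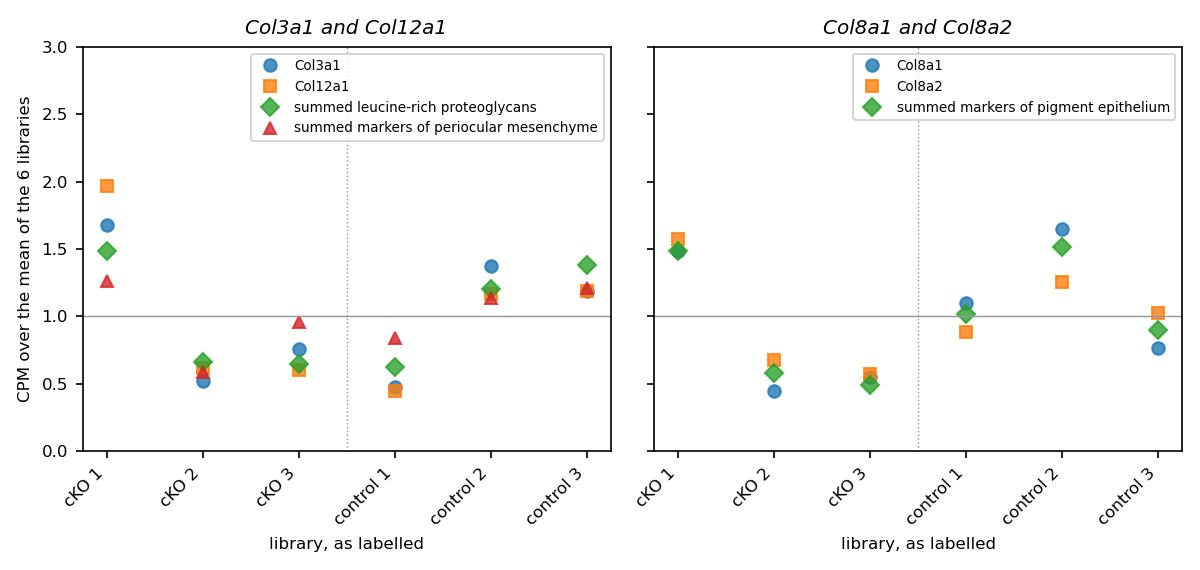
CPM in each library over the mean of the 6 libraries, for Col3a1 and Col12a1 beside the summed leucine-rich proteoglycans and periocular mesenchyme markers (left), and for Col8a1 and Col8a2 beside the summed pigment epithelium markers (right), libraries labelled cKO before those labelled control. Col3a1 is at 1.68 in cKO 1 and 0.474 in control 1, and Col8a1 at 1.65 in control 2 and 0.450 in cKO 2, with the sums beside them high or low in the same libraries.

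The basement membrane collagens of type IV hardly differed between the groups in their abundant members. Col4a1 and Col4a2, which form the type IV molecule found in nearly all basement membranes, had 135, 116 and 111 CPM and 141, 109 and 103 CPM in cKO-labelled libraries, against 134, 127 and 117 CPM and 138, 119 and 115 CPM in control-labelled libraries. Their log2 fold changes were -0.06 (SE 0.07) and -0.08 (SE 0.16). The genes lie head to head on chromosome 8 with the overlap of 22 bases printed above, and the ratio of Col4a1 to Col4a2 counts stayed between 0.963 and 1.08 in all 6 libraries, although the levels themselves were highest in cKO 1 and control 1. Col4a5 and Col4a6, the pair on chromosome X whose products join in some basement membranes, had 63.6, 59.4 and 56.8 CPM and 33.3, 31.7 and 29.1 CPM in cKO-labelled libraries, against 59.8, 62.1 and 55.1 CPM and 32.3, 32.5 and 27.7 CPM in control-labelled libraries. With 1308 bases between their starts, the ratio of Col4a6 to Col4a5 was 0.503 to 0.539. Both had log2 fold changes of 0.02.

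The third type IV pair was scarce and lower in the libraries labelled cKO, without passing the test. Col4a4 had 6.18, 3.58 and 3.75 CPM in cKO-labelled and 6.44, 7.33 and 5.35 CPM in control-labelled libraries, with a log2 fold change of -0.50 (SE 0.20, adjusted p 0.213 in edgeR's test). Col4a3 had 4.50, 2.74 and 2.25 CPM in cKO-labelled and 4.52, 6.04 and 2.95 CPM in control-labelled libraries, a log2 fold change of -0.51 (SE 0.33). Both chains join with that of Col4a5 in the type IV network of mature kidney basement membrane. The library labelled cKO 1 lay within the control range of both genes. Without it, Col4a4 had a log2 fold change of -0.80 and an adjusted p of 0.0221 in edgeR's test. That fit called 361 of 17660 tested genes. Taking out the library that overlapped removes the overlap, so this is no independent check. Leaving out any other single library gave no collagen call. The starts lie 71 bases apart, and the ratio of Col4a4 to Col4a3 counts was 1.21 to 1.81. Of the 6 type IV genes 2 were positive and 4 negative, with a median of -0.07.

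Col18a1, whose product carries endostatin at its end and lies in the inner limiting membrane and vessel walls, was slightly lower in the libraries labelled cKO. It had 112, 100 and 106 CPM in cKO-labelled and 119, 120 and 111 CPM in control-labelled libraries, so that only cKO 1 reached the control range. The log2 fold change was -0.13 (SE 0.05, adjusted p 0.169 in edgeR's test). Col15a1, its closest relative, had at most 1.34 CPM in cKO-labelled and 1.31 CPM in control-labelled libraries. The 8 endothelial markers summed to 304, 302 and 310 CPM in cKO-labelled and 341, 358 and 334 CPM in control-labelled libraries. Those of pericytes summed to 29.3, 24.2 and 23.7 CPM in cKO-labelled and 27.4, 30.5 and 28.8 CPM in control-labelled libraries. The part of either cell type in the Col18a1 values was not tested. Most of the pericyte sum was Pdgfrb, with means of 20.9 CPM in cKO-labelled and 23.6 CPM in control-labelled libraries. Rgs5, too low to be tested, had 0.492 CPM against 0.205 CPM. Of the 4 tested pericyte markers, 1 was positive and 3 negative. Most of the endothelial sum was Kdr, which retinal progenitors also express. Of the 5 tested endothelial markers, 2 were positive and 3 negative, and 0 were called. Pecam1 and Cdh5, which define endothelium, were the positive ones and reached at most 1.13 CPM. Cldn5, next to Kdr in level, had means of 13.2 CPM in cKO-labelled and 15.2 CPM in control-labelled libraries, with no overlap. Its log2 fold change was -0.20 (SE 0.09, adjusted p 0.266 in edgeR's test).

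Col23a1 and Col6a1 had the lowest spread within groups of the 19 members with at least 10 CPM. Col23a1, a transmembrane collagen, had 97.1, 102 and 102 CPM in cKO-labelled and 106, 108 and 107 CPM in control-labelled libraries, a log2 fold change of -0.09 (SE 0.04, adjusted p 0.317 in edgeR's test). Its coefficient of variation within groups was 2.19%, and 6.00% of the 10431 tested genes with at least 10 CPM had a lower one. Col6a1, a chain of the beaded filaments around cells, had 51.5, 51.7 and 51.6 CPM in cKO-labelled and 55.6, 56.0 and 52.1 CPM in control-labelled libraries, with a log2 fold change of -0.08 (SE 0.05). In both genes every library labelled cKO lay below every library labelled control. Col6a2, the next type VI chain, had 16.98, 13.4 and 12.9 CPM in cKO-labelled and 13.8, 15.2 and 14.8 CPM in control-labelled libraries. Col6a3 had 4.23, 1.996 and 2.88 CPM in cKO-labelled and 2.38, 4.35 and 5.10 CPM in control-labelled libraries, and Col6a6 and Col6a4 had at most 1.18 CPM in any library.

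Type VIII collagen, which builds the lattice under corneal endothelium and is also made by other eye tissues, varied widely within both groups as labelled. Col8a1 had 22.2, 6.74 and 8.25 CPM in cKO-labelled and 16.4, 24.6 and 11.5 CPM in control-labelled libraries, with a log2 fold change of -0.49 (SE 0.62). Col8a2 had 5.52, 2.37 and 2.01 CPM in cKO-labelled and 3.10, 4.39 and 3.58 CPM in control-labelled libraries. The 8 pigment epithelium markers, most of them melanin genes such as Pmel, summed to 95.8, 37.3 and 31.4 CPM in cKO-labelled and 65.6, 97.6 and 58.1 CPM in control-labelled libraries. Col8a1 and this sum were high in cKO 1 and control 2 and low in cKO 2 and cKO 3; the part of attached pigment epithelium was not tested. The spread of Col8a1 within groups, a coefficient of variation of 55.5%, exceeded that of 99.7% of the genes with at least 10 CPM, as did that of Col3a1 at 55.1%.

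The other fibril-associated, transmembrane and remaining collagens were low. Col22a1, of tissue junctions, had 3.76, 2.41 and 3.12 CPM in cKO-labelled and 2.55, 3.51 and 2.45 CPM in control-labelled libraries, and Col16a1 had 4.11, 2.54 and 2.53 CPM in cKO-labelled and 2.47, 2.22 and 3.46 CPM in control-labelled libraries. Col20a1 had 1.06, 0.665 and 0.987 CPM in cKO-labelled and 1.09, 1.49 and 1.52 CPM in control-labelled libraries, with a log2 fold change of -0.59 (SE 0.30, adjusted p 0.337 in edgeR's test). Its exons overlap another gene on the same strand with a higher mean of 6.69 CPM, so its counts are uncertain. Col19a1 and Col14a1, the remaining fibril-associated genes, stayed between 0.873 and 2.26 CPM. Col25a1, a membrane collagen of neurons, had 3.40, 2.79 and 2.65 CPM in cKO-labelled and 3.72, 3.51 and 2.87 CPM in control-labelled libraries. Col17a1, the collagen of hemidesmosomes, and Col13a1, of neuromuscular junctions, had log2 fold changes of 0.02 and 0.57, the second at means below 1 CPM. Col26a1 had 10.4, 7.48 and 9.71 CPM in cKO-labelled and 7.95, 7.98 and 9.49 CPM in control-labelled libraries, and Col7a1, the anchoring fibril collagen, had 1.37 to 1.94 CPM in cKO-labelled and 1.41 to 2.87 CPM in control-labelled libraries.

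The members did not share 1 order of the libraries. In the library labelled cKO 1, 12 of the 42 members had their highest value, against 3 in cKO 2 and 4 in cKO 3, and 9, 10 and 4 in control 1 to 3. The lowest value fell in cKO 2 for 16 members. The median log2 fold change was -0.08 for type VI, -0.05 for types XV and XVIII, 0.03 for the other fibril-associated collagens, 0.00 for Col2a1 and type IX, -0.33 for type VIII and -0.03 for the transmembrane collagens. Collagen transcripts are long, with a median summed exon length of 7621 bases against 3922 over all tested genes, and log2 fold changes were lower in genes with longer exons (Spearman's rho -0.27 over 17251 tested genes; genes are no independent replicates). With that trend removed, the collagen median was -0.04 and 0 collagen genes were called by edgeR.

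Of the genes that make, secrete, bind and degrade collagen, 1 passed the test, beside 0.781% of all tested genes. Of 18 genes for modifying and folding collagen chains, 8 were positive and 10 negative and none was called; Serpinh1, the collagen chaperone, had 362, 334 and 322 CPM in cKO-labelled and 290, 287 and 319 CPM in control-labelled libraries (log2 fold change 0.18, adjusted p 0.106 in edgeR's test). P4hb, a subunit of prolyl hydroxylase, had 317, 330 and 311 CPM in cKO-labelled and 276, 292 and 303 CPM in control-labelled libraries. Of 16 tested genes for secretion, processing and cross-linking, 1 was called, lower, beside 0.486% of all tested genes called lower and 0.295% called higher. Pxdn, the peroxidasin that makes the sulfilimine bonds that lock type IV networks, had 115, 108 and 114 CPM in cKO-labelled libraries, against 139, 129 and 124 CPM in control-labelled libraries. Its log2 fold change was -0.21 (SE 0.05, adjusted p 0.0468 in edgeR's test), and the call was lost with adjusted p of 0.0528 to 0.714 in 11 of the 20 alternatives, among them removal of the exon length trend at 0.141. Among 7 tested collagen receptors none was called, and Ddr1, a receptor kinase for collagen, had 554, 528 and 531 CPM in cKO-labelled and 590, 565 and 576 CPM in control-labelled libraries. Itgb1, the integrin beta chain of the collagen receptors, had 177, 186 and 178 CPM in cKO-labelled and 174, 166 and 176 CPM in control-labelled libraries. All 5 tested collagenases and related proteases had negative fold changes, beside 49.9% of all tested genes, and none was called. Their log2 values ranged from -0.31 to -0.005, with a median of -0.11. Their median summed exon length was 5397 bases against 3922 over all tested genes, and the part of length in their signs was not tested. Mmp14 had 132, 119 and 119 CPM in cKO-labelled and 136, 128 and 134 CPM in control-labelled libraries. Mmp15 had 103, 93.3 and 95.3 CPM against 107, 103 and 102 CPM, cKO-labelled first.

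The partners of collagen in the basement membrane had mostly negative fold changes. Of 14 tested genes for laminins, nidogens and proteoglycans, 13 were negative, beside 49.9% of all tested genes. Their median log2 fold change was -0.34, beside 0.00 over all tested genes, and 1 was called lower, beside the same shares called over all tested genes. These are long genes too, with a median summed exon length of 9483 bases against 3922 over all tested genes. The part of length in their signs was not tested. Lamc1, the laminin gamma chain found in most laminins, had 59.9, 54.4 and 50.5 CPM in cKO-labelled libraries, against 73.6, 68.2 and 64.1 CPM in control-labelled libraries. Its log2 fold change was -0.32 (SE 0.06, adjusted p 0.0322 in edgeR's test), and the call was lost with adjusted p of 0.0905 to 0.714 in 7 of the 20 alternatives and held at 0.0434 with the exon length trend removed. Agrn, a heparan sulfate proteoglycan and the most abundant of the list, had 637, 557 and 587 CPM in cKO-labelled and 721, 661 and 641 CPM in control-labelled libraries. Type IV collagen genes, which share the membrane with these proteins, had a median of -0.07, and the difference between these medians was not tested. As for Foxp1, the direction depends on the labels: the authors' deposited table gives log2 fold changes of 0.38 for Lamc1 (adjusted p 0.000196), 0.23 for Pxdn (adjusted p 0.0108) and 0.21 for Agrn (adjusted p 0.0105).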

How the data were processed

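RNA was sequenced from embryonic day 16.5 retinas of 3 mice labelled Foxp1 cKO and 3 labelled control, after ribosomal RNA depletion with a directional kit. The submitters' processing notes name the mm10 build, featureCounts 1.5.1, DESeq2 1.32.0, STAR 2.7.6a and cutadapt 2.8. Whether strand was used in counting is not given in the sources used here. Counts of the 13 members whose exons overlap another gene are therefore uncertain. The authors deposited raw counts per gene and library. The authors' deposited table of the comparison gives, per the file headers, a mean normalized count (signal), a log2 fold change, 2 scores (its standard error and the statistic of the test), and each p-value before and after adjustment.

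Members were found by symbol in the authors' deposited table and by identifier in the counts. The members, their classes, the lists of partner and marker genes and the tests were chosen with earlier results of these data known. Genes were kept by filterByExpr, which left 17275, and compared with edgeR 4.0.16 (R 4.3.3) by robust quasi-likelihood fits with TMM normalization and genotype alone, with Benjamini-Hochberg adjustment at 0.05 over all tested genes. Fold changes computed here are cKO-labelled over control-labelled. CPM use TMM-scaled totals. Positions and exon lengths are from GENCODE M21. No library was a duplicate of another in its group (chi-square over its degrees of freedom 7.39 to 12.46).

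Text values go to the up to 4 members of each class with the highest mean CPM, and in each partner list to called members or else the 2 with the highest CPM. Col3a1, Col11a1, Col4a3, Col4a4, Col20a1, Agrn and the lists' defining genes at or near 0 were named after their values were seen. Alternatives were RLE and upper quartile normalization, other filters, no robust estimation, DESeq2 1.42.0, limma-voom (limma 3.58.1), labelled sex, the replicate number as a block, removal of the exon length trend (lowess span 0.3), and leaving out libraries. The exchanged sex covariate was chosen after seeing the data. The fits were tested on simulated counts. The summed level of the retinal marker list is not reported here.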

Additional observations from a re-analysis of the deposited data

How the results depend on the processing

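The count of called genes was 135 in all and 0 among collagens. In all genes it was 742 with no filter on low counts, 83 with a filter at 1 CPM, 10 with no robust estimation, 566 with DESeq2, 13 with limma-voom, 38 with the exon length trend removed, 9 without the libraries labelled control 2 and cKO 2, 746 with exchanged sexes and 725 with DESeq2 and exchanged sexes. Leaving out single libraries gave 19 to 778. The collagen count was 2 with no filter (Col4a4 and Col9a1), 1 with DESeq2 (Col9a1), 2 with exchanged sexes (Col1a2 and Col9a1), 2 with DESeq2 and exchanged sexes (Col1a1 and Col9a1), and 0 to 1 when single libraries were left out. Whether the replicate numbers pair the samples was not settled. Deviations of same-numbered libraries correlated at 0.11, -0.06 and 0.21. The same-numbered control was the closest for cKO 1 and cKO 3, while cKO 2 correlated most with control 1, at 0.17. With the replicate block 1065 genes were called, 2 of them collagens (Col5a2 and Col9a1), and with the block and the length trend removed 469, with the same 2. Of the 41 tested collagens, 19 kept their sign in all 20 alternatives and 22 did not, and the main value of these 22 was at most 0.49 in size on the log2 scale. Of the genes that changed sign, values are given for the 10 among the 22 collagen genes followed singly (mean of at least 10 CPM, type IV, or groups that do not overlap). With labelled sex as covariate they were 0.035 for Col6a2, 0.026 for Col3a1, 0.017 for Col9a2, 0.0044 for Col4a1 and 0.0064 for Col4a2. With the length trend removed they were 0.033 for Col6a2 and 0.017 for Col3a1, and 0.027 for Col6a2 with the block as well. For Col9a2 it was 0.0026 with upper quartile normalization and 0.0013 with the 1 CPM filter. Without control 2 and cKO 2 they were 0.068 for Col6a2, 0.55 for Col3a1, 0.14 for Col9a3, 0.023 for Col9a2 and 0.13 for Col8a1. With exchanged sexes in edgeR and in DESeq2 they were -0.0040 and -0.0063 for Col2a1, 0.15 and 0.22 for Col3a1, 0.032 and 0.029 for Col9a3, -0.020 and -0.022 for Col4a6, and -0.0019 and -0.0043 for Col4a5. Leaving out single libraries gave -0.15 to 0.062 for Col6a2, -0.059 to 0.10 for Col2a1, -0.67 to 0.27 for Col3a1, -0.21 to 0.050 for Col9a3, -0.034 to 0.051 for Col9a2, -0.045 to 0.079 for Col4a6, -0.022 to 0.063 for Col4a5 and -0.23 to 0.010 for Col4a2. The causes of these changes were not tested. Depth limits the 5 members under 1 CPM.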

Other observations

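Markers of other tissues that can reach a dissected retina differed between single libraries. The 8 lens markers, mainly crystallin genes such as Cryaa, summed to 46.4, 14.5 and 203 CPM in the libraries labelled cKO, against 51.1, 205 and 747 CPM in those labelled control. The 8 skeletal muscle markers summed to 30.8, 18.7 and 26.9 CPM in cKO-labelled and 30.3, 32.4 and 67.7 CPM in control-labelled libraries. Microglial markers summed to 19.5, 17.9 and 17.4 CPM in cKO-labelled and 19.1, 22.6 and 23.6 CPM in control-labelled libraries, and optic nerve astrocyte markers to 12.8, 6.90 and 12.0 CPM in cKO-labelled and 14.0, 11.1 and 12.3 CPM in control-labelled libraries. Pax6, a transcription factor of retinal progenitors, had 650, 645 and 680 CPM in cKO-labelled and 669, 634 and 673 CPM in control-labelled libraries, so the labelled tissue was present in every library.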
